A study of Drosophila melanogaster with 8 samples.

Results

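The vacuolar proton pump (V-ATPase) and the lysosome it acidifies were followed through 28 genes of a table of 9177 genes. The genes were the 18 whose FlyBase symbol starts with Vha, and 10 lysosome genes, namely Lamp1, cathD, spin, Mitf, Npc1a, Lerp, car, dor, lt and Rab7. Another 15 genes with a Vha symbol, and Trpml, were not analysed here. The rule that chose the genes used symbols only, though it was written with earlier results of these data known.

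RNA was sequenced from enterocytes, the absorptive cells of the gut, taken from the posterior midgut (R3 to R5) of virgin Drosophila melanogaster females. SvbAct (n = 3) carried UAS-SvbACT::GFP, a constitutive activator form of Shavenbaby (Svb), a transcription factor whose gene is ovo. RNAiSvb (n = 3) carried UAS-SvbRNAi, a hairpin against the same gene, and Ctrl (n = 2) was the driver line crossed to Canton-S. Flies of all 3 groups carried MyoIA-Gal4, UAS-GFP and tubGal80TS, the temperature-sensitive repressor of Gal4, each over a wild-type copy, and all were 9 days old after 6 days at 29 °C. MyoIA-Gal4 is active in enterocytes, whereas the strain label names stem cells as the place of activation. Each library pooled the guts of more than 20 females, and patches of cells held back by a 70 µm strainer were collected, so RNA from other gut cells could be present. In such bulk samples fewer cells of a type and less RNA per cell cannot be told apart.

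Libraries held from 15450011 to 23748649 counts, and the 28 genes took between 1.567% and 2.264% of them. The gene ovo had 868, 1189 and 762 counts in SvbAct, 40, 26 and 61 counts in RNAiSvb, and 9 and 2 counts in Ctrl. It was thus higher in every SvbAct library than in every other one, while the libraries labelled RNAiSvb were above Ctrl rather than below it. The RNAiSvb difference did not pass the test (log2 fold change 2.63, edgeR's quasi-likelihood test, adjusted p = 0.0807), so no lowering of ovo counts was seen behind any direction given below for RNAiSvb. Reads from the hairpin or from the activator transgene could be counted as ovo. The counts cannot tell such reads from the gene's own RNA, so its own level in RNAiSvb and SvbAct was not measured. All 8 enterocyte markers were in the table, and their summed level ran from 10300 to 12200 CPM in SvbAct, from 8500 to 13200 CPM in RNAiSvb and from 6920 to 7320 CPM in Ctrl, where CPM are counts scaled to a common library total with TMM factors. The largest parts of that sum were mesh and Mal-A1, which averaged 3460 and 1090 CPM in Ctrl. Against Ctrl the log2 fold change was positive for 6 and negative for 2 of the 8 markers in SvbAct. In RNAiSvb it was positive for 7 and negative for 1. Cad99C, one of the 8 markers, was at 0 in RNAiSvb library 1.

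The V-ATPase is a rotary pump built from a cytosolic V1 sector, which hydrolyses ATP at its A and B subunits, and a membrane V0 sector, whose ring of c subunits carries protons past subunit a. It acidifies endosomes and lysosomes in every cell, and in the fly midgut it also acidifies the lumen at the copper cells. The low pH activates lysosomal hydrolases such as cathepsins. Cargo reaches the lysosome through the GTPase Rab7 and the HOPS tethering complex, to which the products of car, dor and lt belong.

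The 28 genes spanned a wide range of levels in Ctrl. Levels between genes are given per length, as CPM per kilobase of exon. Vha16-1, which encodes the proton-carrying subunit c, stood first at 2060 ± 215 in Ctrl (SD, n = 2), with 99.6% of the genes with an annotated length at or below it. It was followed by Vha26 (subunit E, 648 ± 44.9), Vha68-2 (subunit A, 630 ± 39.2), Vha55 (subunit B, 585 ± 35.1), VhaAC45 (accessory subunit, 579 ± 61.3) and Vha13 (subunit G, 471 ± 20.9), all in Ctrl and on the per-length scale. Intervals of 1 SD around the means of Vha26, Vha68-2, Vha55 and VhaAC45 overlapped, so their order is not resolved. Between 39.9 and 302 per kilobase in Ctrl lay VhaPPA1-1 (subunit c''), Vha36-1 (subunit D), 4 subunit a genes, Vha14-1 (subunit F), VhaSFD (subunit H) and VhaM9.7-b (subunit e). At the low end of the pump genes were VhaAC39-2 (subunit d) at 5.54 ± 0.542, Vha68-1 at 2.65 ± 0.176 and Vha68-3 at 1.83 ± 1.39 per kilobase in Ctrl. The other VhaAC39 gene, VhaAC39-1, was among the genes not analysed here, so the level of subunit d as a whole is not given. The lysosome genes in Ctrl ran from Lamp1 at 271 ± 28.4 to car at 6.18 ± 0.669 per kilobase, with Lerp at 175 ± 0.681, spin at 164 ± 15.6, Rab7 at 119 ± 10.1, cathD at 91.4 ± 7.7 and Mitf at 32.8 ± 8.4 between them.

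**Figure D1:**
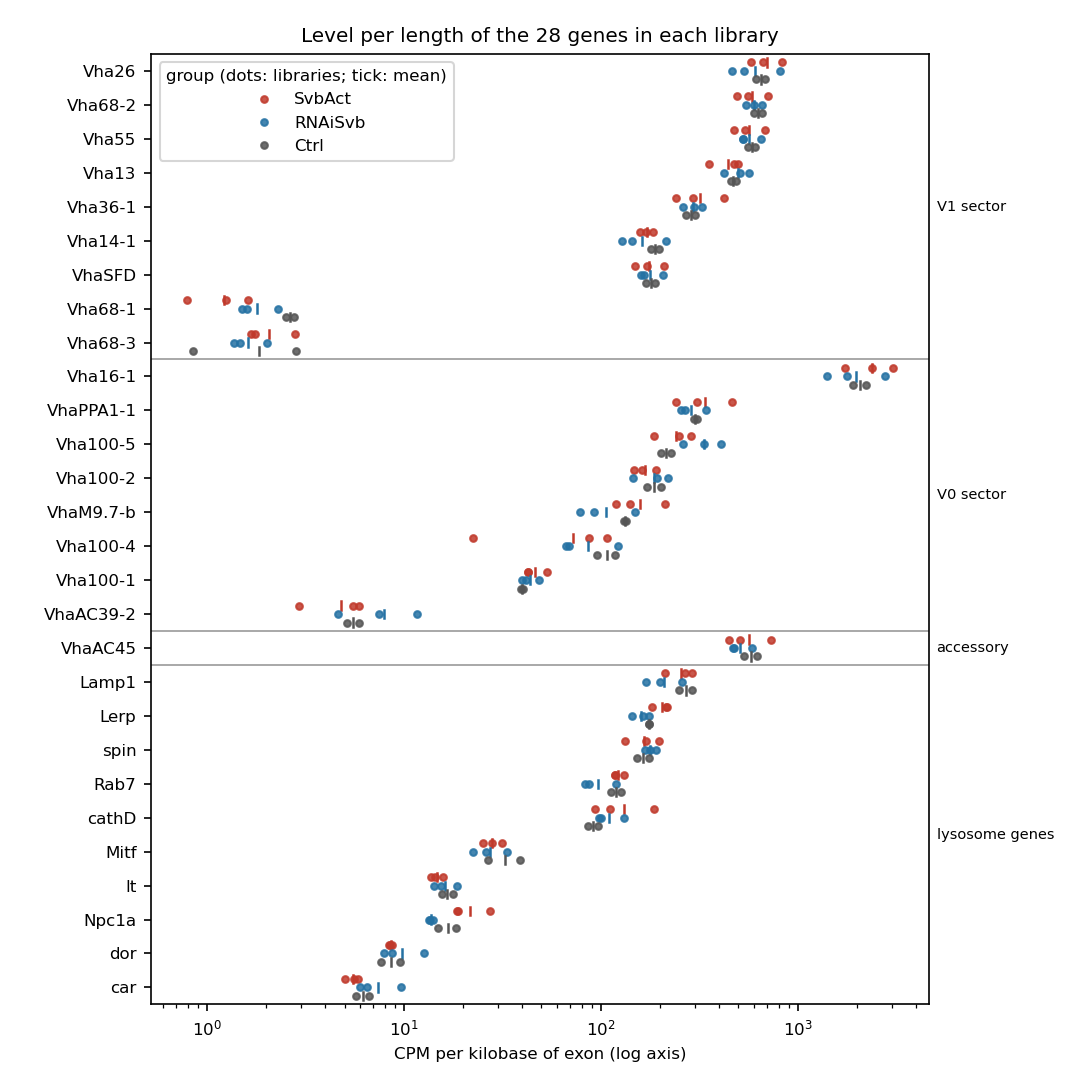
Level of each of the 28 genes in each of the 8 libraries, in CPM per kilobase of exon on a log axis; dots are libraries (3 SvbAct, 3 RNAiSvb, 2 Ctrl) and ticks are group means. Levels run from those of Vha68-3 and Vha68-1 up to Vha16-1, which averaged 2060 in Ctrl, and the groups lie close to one another for most genes.

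None of the 28 genes passed the test in any of the 3 comparisons. Each gene was tested with edgeR's quasi-likelihood test over the 8775 genes that passed the filter on low counts, which all 28 did, and a gene was called at an adjusted p under 0.05. Between SvbAct and Ctrl 0 of 28 were called, against 3.44% of all genes tested. Between RNAiSvb and Ctrl 0 of 28 were called, against 1.36%, and between SvbAct and RNAiSvb 0 of 28, against 6.26%. At these shares a count of 0 among 28 genes is near the background.

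An unadjusted p under 0.05 was reached by 1 gene between SvbAct and Ctrl (Vha68-1), where 17.4% of all genes tested reached it. It was reached by 1 gene between RNAiSvb and Ctrl (Vha100-5), against 13.6% of all genes, and by 3 genes between SvbAct and RNAiSvb (Npc1a, Lerp and Vha100-5), against 23.7%. With the DESeq2 Wald test the calls were 0, 0 and 1, the last being Npc1a, where that test called 7.31%, 4% and 12% of all genes with an adjusted p. Groups did not overlap for 4, 4 and 3 of the 28 genes in these comparisons, where 38.6%, 32.9% and 29.8% of all genes tested did not overlap. The median log2 fold change of the 28 genes was -0.015 for SvbAct against Ctrl, where all genes tested had -0.013. It was -0.06 for RNAiSvb against Ctrl, where all genes had 0.022, and 0.064 for SvbAct against RNAiSvb, where all genes had -0.018.

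A missed threshold does not show equal levels, and the intervals give what the data allow. The 95% interval of the log2 fold change lay within 1 of 0 for 23 of 28 genes between SvbAct and Ctrl, for 23 between RNAiSvb and Ctrl, and for 22 between SvbAct and RNAiSvb. The median distance from a fold change to the end of its interval was 0.5, 0.5 and 0.44 on the log2 scale in these comparisons. Vha68-1, Vha68-3, Vha100-4 and VhaAC39-2 had wider intervals that passed 1 in each comparison. The comparisons share groups, so their fold changes are not independent of one another.

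**Figure D2:**
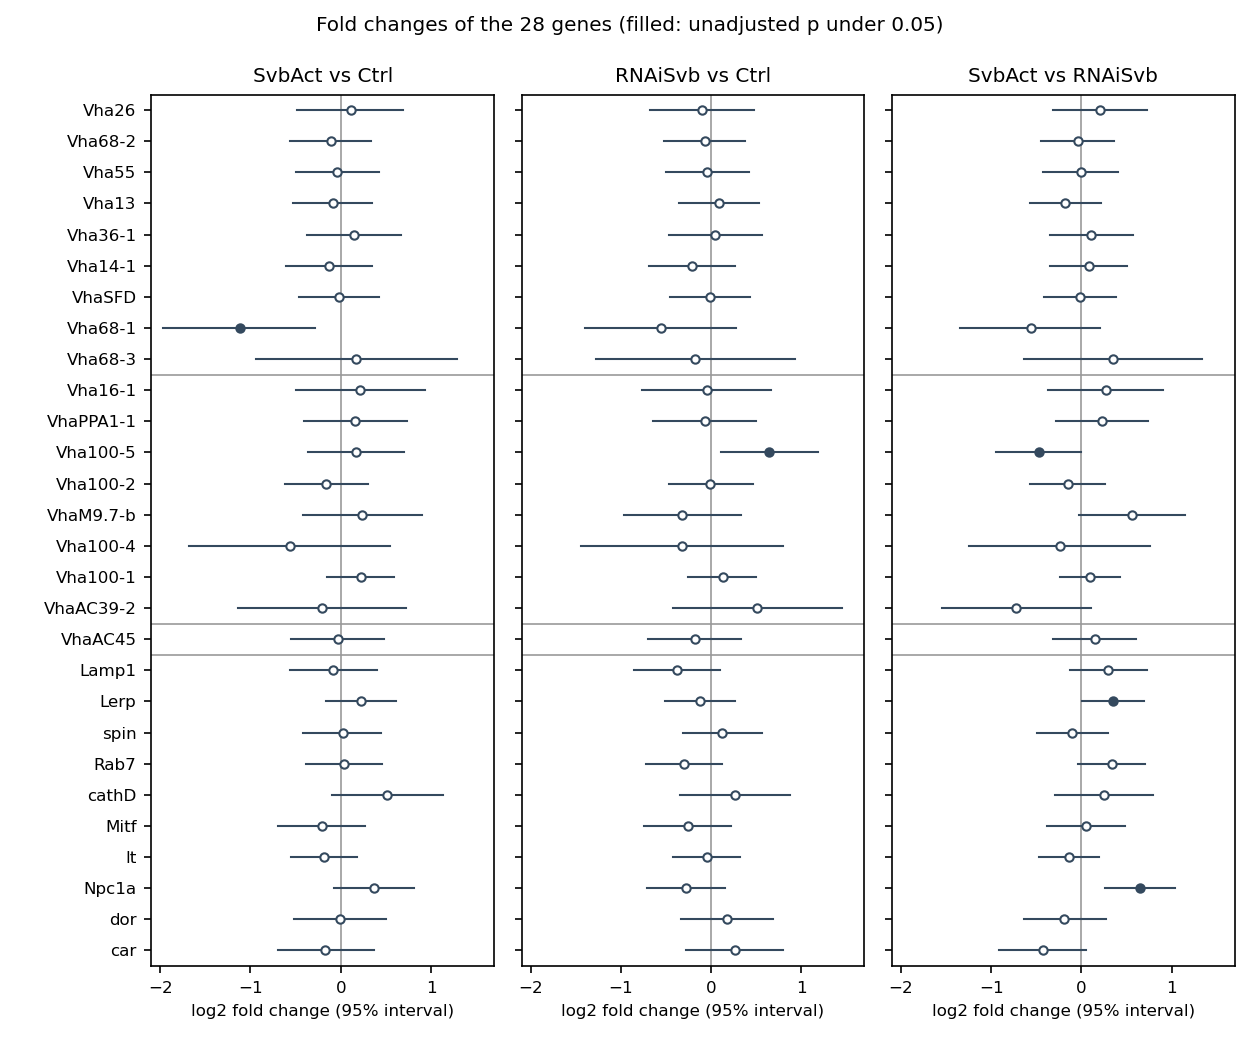
Log2 fold change of each of the 28 genes with its 95% interval in the 3 comparisons; filled points have an unadjusted p under 0.05, and none has an adjusted p under 0.05. Most intervals include 0 and lie within 1 of it, and Vha68-1 between SvbAct and Ctrl, at -1.12, is the farthest from 0.

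Among the V1 genes, Vha68-2 carried almost the whole level of subunit A, the subunit that binds and hydrolyses ATP. Vha68-2 had 1540, 1940 and 1350 CPM in SvbAct, 1810, 1660 and 1510 CPM in RNAiSvb, and 1810 and 1660 CPM in Ctrl. The groups overlapped, and Vha68-2 made up between 99.1% and 99.6% of the summed per-length level of the 3 Vha68 genes in every library. Its log2 fold change was -0.11 for SvbAct against Ctrl (SE 0.2, adjusted p = 0.83, edgeR's quasi-likelihood test) and -0.07 for RNAiSvb against Ctrl (SE 0.2, adjusted p = 0.923).

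Vha68-1, a low-level copy of subunit A, had 3.36, 4.32 and 2.11 CPM in SvbAct, 4.04, 4.27 and 6.14 CPM in RNAiSvb, and 7.43 and 6.77 CPM in Ctrl. All 6 libraries of the 2 transgene groups were below both Ctrl libraries, and the lowest 3 values included 2 from SvbAct. Its log2 fold change was -1.12 for SvbAct against Ctrl (SE 0.38, 95% interval -1.97 to -0.28, adjusted p = 0.162 by edgeR's quasi-likelihood test) and -0.56 for RNAiSvb against Ctrl (SE 0.38, adjusted p = 0.569). These values rest on 61, 62 and 37 counts in SvbAct, 89, 100 and 127 counts in RNAiSvb, and 139 and 112 counts in Ctrl. Vha68-1 and Vha68-2 are close copies in a cluster on chromosome arm 2L (Vha68-2 at 12974322 to 12978607, Vha68-3 at 12978786 to 12981293 and Vha68-1 at 13000770 to 13004107, build dm6, 1-based), with 178 bases between Vha68-2 and Vha68-3, so reads could be split among them and the low values are uncertain. Vha68-3 had 4.08, 6.82 and 4.28 CPM in SvbAct, 3.36, 3.59 and 4.93 CPM in RNAiSvb, and 2.09 and 6.89 CPM in Ctrl. Its Ctrl libraries lay at opposite ends of the range.

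The other V1 genes had small log2 fold changes between the groups, which does not show equal levels. Vha55, the B subunit beside which ATP is bound, averaged 1580 ± 303 CPM in SvbAct, 1590 ± 196 CPM in RNAiSvb (SD, n = 3 each) and 1630 ± 97.9 CPM in Ctrl (SD, n = 2). Vha26, a peripheral stalk subunit, averaged 2040 ± 381, 1770 ± 552 and 1900 ± 131 CPM in SvbAct, RNAiSvb and Ctrl. For Vha55, Vha26, Vha13, Vha36-1, Vha14-1 and VhaSFD the log2 fold changes lay between -0.13 and 0.15 for SvbAct against Ctrl, between -0.21 and 0.09 for RNAiSvb against Ctrl and between -0.18 and 0.21 for SvbAct against RNAiSvb. VhaSFD, whose subunit H bridges V1 and V0, had log2 fold changes of -0.02, -0.01 and -0.01 in these comparisons.

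In V0, Vha16-1 had 7320, 9430 and 5330 CPM in SvbAct, 8550, 4320 and 5490 CPM in RNAiSvb, and 5880 and 6820 CPM in Ctrl. Libraries of SvbAct and of RNAiSvb lay both above and below Ctrl, so the spread within groups exceeded the differences between them. For Vha16-1 the log2 fold change was 0.21 for SvbAct against Ctrl (SE 0.32, adjusted p = 0.787, edgeR's quasi-likelihood test) and -0.05 for RNAiSvb against Ctrl (SE 0.32, adjusted p = 0.962). VhaPPA1-1, whose c'' subunit sits in the same ring, had log2 fold changes of 0.16, -0.07 and 0.23 for SvbAct against Ctrl, RNAiSvb against Ctrl and SvbAct against RNAiSvb. VhaM9.7-b, a small membrane subunit, had 171, 257 and 146 CPM in SvbAct, 181, 95.1 and 113 CPM in RNAiSvb, and 160 and 164 CPM in Ctrl. RNAiSvb library 1 lay within the SvbAct range while libraries 2 and 3 lay below all others, and the log2 fold change for SvbAct against RNAiSvb was 0.56 (SE 0.26, adjusted p = 0.23, edgeR's quasi-likelihood test).

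VhaAC39-2, a low-level subunit d gene, had 3.64, 6.82 and 7.3 CPM in SvbAct, 5.72, 14.3 and 9.18 CPM in RNAiSvb, and 6.36 and 7.31 CPM in Ctrl. Its lowest log2 fold change was -0.72 for SvbAct against RNAiSvb (SE 0.38, 95% interval -1.55 to 0.11, adjusted p = 0.273 by edgeR's quasi-likelihood test), and the groups overlapped. VhaAC45, the accessory subunit that takes part in pump assembly, averaged 1140 ± 302 CPM in SvbAct, 1030 ± 133 CPM in RNAiSvb (SD, n = 3 each) and 1170 ± 123 CPM in Ctrl (SD, n = 2). Its log2 fold changes were -0.03, -0.18 and 0.15 for SvbAct against Ctrl, RNAiSvb against Ctrl and SvbAct against RNAiSvb.

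Subunit a, which forms the proton path beside the ring, was spread over 4 genes. Vha100-5 had the highest per-length level of the 4. It had 542, 836 and 728 CPM in SvbAct, 762, 976 and 1190 CPM in RNAiSvb, and 590 and 660 CPM in Ctrl. All RNAiSvb libraries were above both Ctrl libraries, and SvbAct overlapped both. For Vha100-5 the log2 fold change was 0.64 for RNAiSvb against Ctrl (SE 0.24, 95% interval 0.11 to 1.18, adjusted p = 0.276 by edgeR's quasi-likelihood test) and -0.47 for SvbAct against RNAiSvb (SE 0.21, adjusted p = 0.209). It was 0.17 for SvbAct against Ctrl (SE 0.24, adjusted p = 0.769). Exons of Vha100-5 (2L, 11738948 to 11744524, dm6) overlap asRNA:CR44144 on the other strand by 527 bases, and without a stated strand setting their reads cannot be told apart.

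Vha100-4, known from the acid-secreting copper cells, was singled out here after its values were seen, as the gene with the widest spread of the 28. It had 238, 294 and 61.5 CPM in SvbAct, 333, 181 and 188 CPM in RNAiSvb, and 323 and 261 CPM in Ctrl. SvbAct library 3 stood apart as the lowest, and the highest library held 5.41 times the CPM of the lowest. The Hox gene lab, which specifies copper cells, had 107, 114 and 31.6 CPM in SvbAct, 174, 61.9 and 63.8 CPM in RNAiSvb, and 137 and 119 CPM in Ctrl. The lowest library for lab was the same SvbAct library 3 and the highest the same RNAiSvb library 1, as they were for the marker Ptx1 (337 and 619 CPM). The markers dve and CAH1 were instead lowest in RNAiSvb library 3, at 261 and 238 CPM. The summed level of the 4 other copper cell markers (lab, Ptx1, dve and CAH1) ran from 1020 to 1450 CPM in SvbAct, from 955 to 1600 CPM in RNAiSvb and from 1520 to 1630 CPM in Ctrl, with none at 0, and the part of copper cells in the Vha100-4 values was not tested. Vha100-4 had a log2 fold change of -0.56 for SvbAct against Ctrl (SE 0.5, adjusted p = 0.618, edgeR's quasi-likelihood test) and -0.32 for RNAiSvb against Ctrl (SE 0.5, adjusted p = 0.826). Without SvbAct library 3 the value against Ctrl was -0.13.

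As a share of the summed per-length level of the 4 subunit a genes, Vha100-5 took 45.9% ± 7.57 in SvbAct, 51.2% ± 9.51 in RNAiSvb (SD, n = 3 each) and 39.2% ± 4.58 in Ctrl (SD, n = 2). Vha100-2 took 31.9% ± 2.07 in SvbAct, 28.7% ± 5.85 in RNAiSvb and 34.0% ± 2.6 in Ctrl. Vha100-4 took 13.3% ± 7.36, 13.4% ± 5.55 and 19.5% ± 2.17 in SvbAct, RNAiSvb and Ctrl. Vha100-1, best known from neurons, took the smallest share, at 8.88% ± 0.446, 6.7% ± 0.505 and 7.29% ± 0.194 in the same groups. The Vha100-1 shares of the SvbAct libraries were all above those of the other 5. In 12 comparisons of these shares, 2-sided exact permutation tests gave adjusted p-values of 0.533 or more. With 3 libraries against 2 such a test cannot go below 0.2, and with 3 against 3 not below 0.1. Vha100-4 and Vha100-2 lie 517 bases apart on 3R, at 18386841 to 18389805 and 18390323 to 18399169 (dm6).

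**Figure D3:**
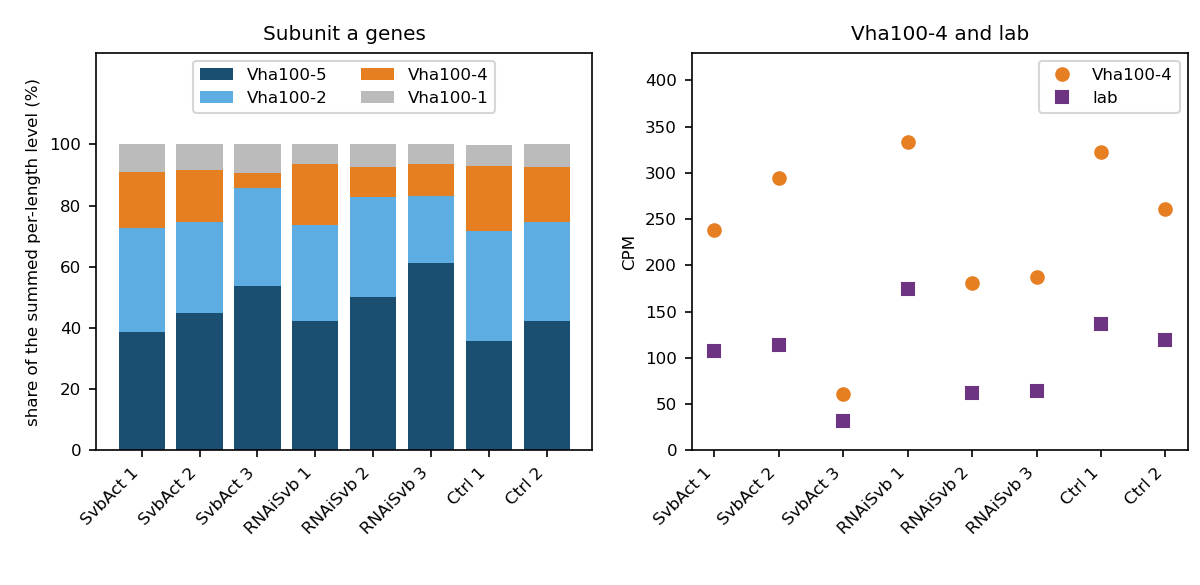
Left, share of each of the 4 subunit a genes in their summed per-length level, in percent, for each of the 8 libraries (3 SvbAct, 3 RNAiSvb, 2 Ctrl); right, CPM of Vha100-4 and of the copper cell gene lab in the same libraries. Vha100-5 takes the largest share in 7 libraries and is level with Vha100-2 at 35.9% in Ctrl library 1, and SvbAct library 3 is the lowest for Vha100-4, at 61.5 CPM, and for lab, at 31.6 CPM.

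Of the lysosome genes, Npc1a came closest to the threshold. Npc1a exports cholesterol and other sterols from the lysosome, and lies on 2L at 10213812 to 10221216 (dm6). It had 97.2, 142 and 97.4 CPM in SvbAct, 70.1, 73.4 and 70.9 CPM in RNAiSvb, and 77.6 and 95.9 CPM in Ctrl. All SvbAct libraries were above, and all RNAiSvb libraries below, both Ctrl libraries. For Npc1a the log2 fold change was 0.65 for SvbAct against RNAiSvb (SE 0.18, 95% interval 0.26 to 1.04, adjusted p = 0.0571 by edgeR's quasi-likelihood test). Against Ctrl it was 0.37 in SvbAct (SE 0.2, adjusted p = 0.377) and -0.28 in RNAiSvb (SE 0.2, adjusted p = 0.582). The difference between SvbAct and RNAiSvb was called by the DESeq2 Wald test (adjusted p = 0.0179) and by edgeR on library totals (adjusted p = 0.0473), and not under 14 other settings, with adjusted p reaching 0.145 without SvbAct library 2.

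Lerp, the receptor that sorts lysosomal enzymes, had 657, 788 and 775 CPM in SvbAct, 518, 591 and 634 CPM in RNAiSvb, and 632 and 635 CPM in Ctrl. SvbAct lay above both other groups in every library. Lerp had a log2 fold change of 0.35 for SvbAct against RNAiSvb (SE 0.15, adjusted p = 0.202, edgeR's quasi-likelihood test) and 0.22 for SvbAct against Ctrl (SE 0.17, adjusted p = 0.555). Exons of Lerp overlap lncRNA:CR46073 on the other strand by 307 bases, so a part of its reads is uncertain. Lamp1, a glycoprotein of the lysosomal membrane, had 424, 335 and 460 CPM in SvbAct, 407, 316 and 268 CPM in RNAiSvb, and 397 and 461 CPM in Ctrl. Its lowest library was from RNAiSvb, but the groups overlapped, and the log2 fold change was -0.08 for SvbAct against Ctrl (adjusted p = 0.892) and -0.38 for RNAiSvb against Ctrl (SE 0.21, adjusted p = 0.481, edgeR's quasi-likelihood test).

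The gene cathD encodes an aspartic protease of the lysosome. It had 167, 334 and 198 CPM in SvbAct, 179, 233 and 175 CPM in RNAiSvb, and 173 and 153 CPM in Ctrl. SvbAct library 2 was far above the others, and the RNAiSvb libraries were all above Ctrl by a small margin. The log2 fold change of cathD was 0.51 for SvbAct against Ctrl (SE 0.28, adjusted p = 0.377, edgeR's quasi-likelihood test), and it was 0.16 without SvbAct library 2. Its exons overlap those of puml on the other strand by 148 bases. The gene spin encodes a transporter of late endosomes and lysosomes, and had 719, 620 and 485 CPM in SvbAct, 613, 649 and 698 CPM in RNAiSvb, and 560 and 641 CPM in Ctrl. Its SvbAct values bracketed those of both other groups, and no log2 fold change of spin exceeded 0.12 in size.

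Mitf, the fly member of the MITF and TFEB family of factors that control pump and lysosome genes, had 116, 144 and 128 CPM in SvbAct, 153, 103 and 120 CPM in RNAiSvb, and 123 and 178 CPM in Ctrl. The groups overlapped throughout, with log2 fold changes of -0.21 for SvbAct against Ctrl (SE 0.22, adjusted p = 0.664, edgeR's quasi-likelihood test) and -0.26 for RNAiSvb against Ctrl (SE 0.22, adjusted p = 0.638). Mitf differed more between the Ctrl libraries than between the group means.

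The trafficking genes fell into different patterns without passing the test. Rab7, the GTPase of late endosomes, had 224, 202 and 200 CPM in SvbAct, 204, 141 and 149 CPM in RNAiSvb, and 191 and 215 CPM in Ctrl. RNAiSvb libraries 2 and 3 were the lowest, and the log2 fold change for SvbAct against RNAiSvb was 0.34 (SE 0.17, adjusted p = 0.255, edgeR's quasi-likelihood test). Of the HOPS genes, car had 16.1, 18 and 18.8 CPM in SvbAct, 19.3, 30.9 and 20.9 CPM in RNAiSvb, and 18.3 and 21.3 CPM in Ctrl. RNAiSvb lay above SvbAct in every library, and the log2 fold change for SvbAct against RNAiSvb was -0.43 (SE 0.22, adjusted p = 0.263, edgeR's quasi-likelihood test). The gene dor had 27.6, 27 and 26.6 CPM in SvbAct, 25.1, 40.1 and 27.4 CPM in RNAiSvb, and 30.2 and 24.2 CPM in Ctrl. RNAiSvb library 2 was the highest for dor as it was for car. The gene lt had 77.1, 74.1 and 84.9 CPM in SvbAct, 100, 83.2 and 76.6 CPM in RNAiSvb, and 84 and 94.9 CPM in Ctrl. It had one of the narrowest ranges of the 28 genes, with the highest library 1.35 times the lowest, a ratio it shared with Vha100-1.

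Single libraries differed more than groups for the pump genes. The measure was each gene's log2 CPM (prior count 2) in a library minus its mean over the 8 libraries. In SvbAct, 7, 16 and 2 of the 18 Vha genes lay above their own mean in libraries 1, 2 and 3. In RNAiSvb the counts were 14, 6 and 4, and in Ctrl 12 and 9. Over all genes tested, between 49.4% and 53.5% lay above their own mean in a library. The median deviation of the Vha genes was -0.032, 0.287 and -0.261 in SvbAct, 0.137, -0.143 and -0.144 in RNAiSvb, and 0.054 and -0.003 in Ctrl. SvbAct library 2 was thus the highest and SvbAct library 3 the lowest of the 8, and these held the highest value for 10 and the lowest value for 9 of the 18 Vha genes. The 10 lysosome genes stayed closer to 0, with medians from -0.133 to 0.104. Within groups, the median SD of log2(CPM + 0.1) was 0.287 for the Vha genes and 0.235 for the lysosome genes, and 0.254 for genes at or above the mean CPM of the lowest of the 28. The highest library held a median of 1.73 times the CPM of the lowest over the 28 genes, where the 6797 genes at or above that level had 1.9.

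**Figure D4:**
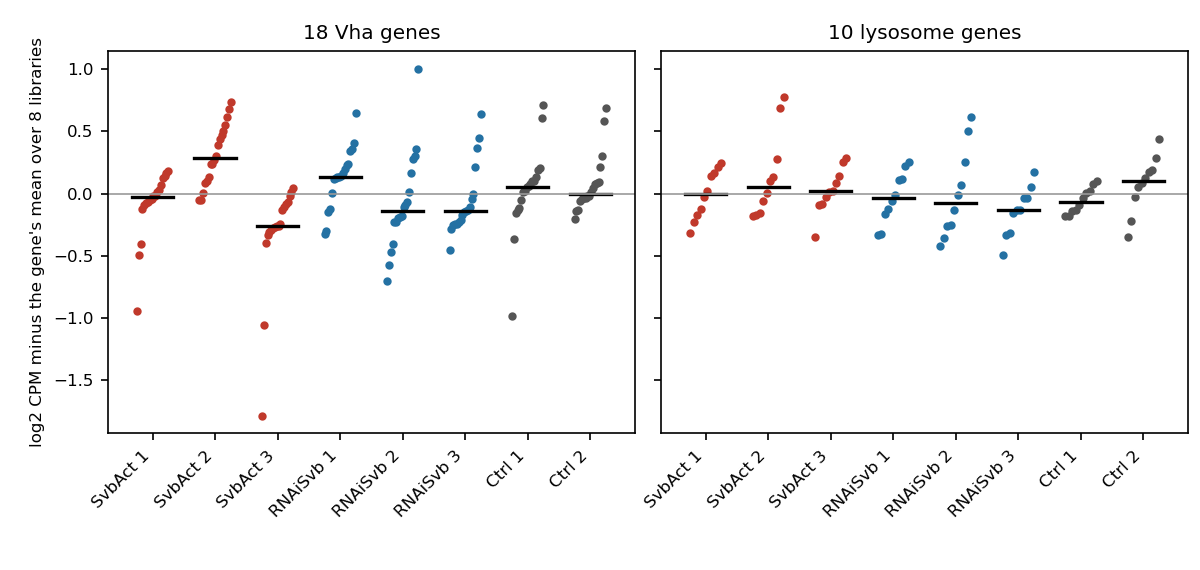
Deviation of each gene's log2 CPM from its mean over the 8 libraries, for the 18 Vha genes (left) and the 10 lysosome genes (right); dots are genes, bars are medians, and colours are the groups SvbAct, RNAiSvb and Ctrl. The Vha medians run from -0.261 in SvbAct library 3 to 0.287 in SvbAct library 2, and the lysosome medians from -0.133 to 0.104.

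Some markers of other tissues and cells differed between the groups. More cells of a type and more RNA of its markers in other cells cannot be told apart here. Of 5 progenitor markers 4 were in the table, and all 4 rose in SvbAct against Ctrl, with a summed level of 92.7 to 146 CPM in SvbAct, 22.4 to 32.7 CPM in RNAiSvb and 20.3 to 22.1 CPM in Ctrl. Only ClC-a and Drip of 7 Malpighian tubule markers were in the table, and their sum ran from 219 to 336 CPM in SvbAct, from 380 to 538 CPM in RNAiSvb and from 538 to 614 CPM in Ctrl. ClC-a fell in SvbAct against Ctrl (log2 fold change -1.58, adjusted p = 0.0125, edgeR's quasi-likelihood test). The tubule, listed as removed at dissection, is rich in V-ATPase. The 6 visceral muscle markers also varied, from 186 to 649 CPM in SvbAct, from 199 to 1240 CPM in RNAiSvb and from 255 to 518 CPM in Ctrl. None of these progenitor, tubule and muscle markers was at 0 in any library, and their part in the values of the 28 genes was not tested. The 9 enteroendocrine markers summed to between 339 and 394 CPM in SvbAct, between 311 and 461 CPM in RNAiSvb and between 355 and 384 CPM in Ctrl. Among them Dh31, a peptide hormone gene, had 11.3, 18.9 and 11.6 CPM in SvbAct, 2.77, 2.56 and 2.71 CPM in RNAiSvb, and 9.95 and 13.7 CPM in Ctrl. Dh31 fell in RNAiSvb against Ctrl (log2 fold change -2.14, adjusted p = 0.00629, edgeR's quasi-likelihood test) and was higher in SvbAct than in RNAiSvb (2.37, adjusted p = 0.00136). No other enteroendocrine marker was called in these comparisons. In RNAiSvb against Ctrl the log2 fold change was positive for 6 of the 9 and negative for 3, so the others did not follow Dh31 as a set. Of 4 haemocyte markers 3 were in the table. Their sum ran from 85.2 to 94.6 CPM in SvbAct, from 97.3 to 99.8 CPM in RNAiSvb and from 101 to 105 CPM in Ctrl. Almost all of it came from crq, at 82.6 to 104 CPM, while Hml and Col4a1 had at most 2.09 and 1.82 CPM in any library. Hml was at 0 in SvbAct library 1 and in RNAiSvb library 2. The 1 tracheal marker in the table had at most 1.46 CPM in any library and was at 0 in both Ctrl libraries.

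Other genes of the lysosome were taken from 6 lists, none of which holds any of the 28. Of 32 genes listed as hydrolases and their activators, 1 rose (Npc2a) and 1 fell (Npc2f) in SvbAct against Ctrl. Of all genes tested, 1.95% rose and 1.49% fell in that comparison. The list also holds Npc2 family genes and GILT thiol reductase genes, so not every gene on it encodes a hydrolase. Against Ctrl 1 of the 32 rose in RNAiSvb, where 0.262% of all genes rose. Between SvbAct and RNAiSvb 4 were higher and 4 lower in SvbAct, where 4.05% and 2.21% of all genes tested were. The list's median log2 fold changes were -0.024, 0.011 and -0.087 in these comparisons. The calls thus went both ways around medians near 0. The DESeq2 Wald test called more of the 32, with 2 up and 1 down in SvbAct against Ctrl, 4 up and 3 down in RNAiSvb against Ctrl, and 4 higher and 8 lower in SvbAct against RNAiSvb. It also called more of all genes, namely 7.31%, 4% and 12%.

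Npc2a, the luminal sterol-binding partner of Npc1a, had 15.1, 23.2 and 14.9 CPM in SvbAct, 3.54, 3.76 and 2.85 CPM in RNAiSvb, and 3.37 and 3.81 CPM in Ctrl. SvbAct lay above both other groups in every library, while RNAiSvb overlapped Ctrl. The log2 fold change of Npc2a was 2.3 for SvbAct against Ctrl (SE 0.32, adjusted p = 0.00446, edgeR's quasi-likelihood test) and 2.38 for SvbAct against RNAiSvb (SE 0.27, adjusted p = 0.00102). The first of these calls was lost when Ctrl library 1 was left out (adjusted p = 0.0726) or Ctrl library 2 (adjusted p = 0.05, rounded). Npc2f, a gene of the same family, had 9.1, 23.9 and 15.6 CPM in SvbAct, 37.6, 53.9 and 20.5 CPM in RNAiSvb, and 95 and 57.6 CPM in Ctrl. Npc2f fell in SvbAct against Ctrl (log2 fold change -2.24, SE 0.43, adjusted p = 0.0209, edgeR's quasi-likelihood test), a call lost without either Ctrl library or without SvbAct library 1, with adjusted p of 0.218, 0.063 and 0.0522. Npc2e was higher in SvbAct than in RNAiSvb (log2 fold change 2.24, adjusted p = 0.00424, edgeR's quasi-likelihood test), with 134, 291 and 264 CPM in SvbAct and 60.4, 42.6 and 43.1 CPM in RNAiSvb. In Ctrl Npc2e had 184 and 90.4 CPM. Against Ctrl its log2 fold change was 0.74 in SvbAct and -1.5 in RNAiSvb, neither of them called by that test. Exons of asRNA:CR44192 on the other strand overlap 611 of the 661 exon bases of Npc2e, so its counts are uncertain.

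Ect3, which encodes a beta-galactosidase, had 1.71, 1.39 and 1.25 CPM in SvbAct, 9.27, 18 and 6.82 CPM in RNAiSvb, and 0.588 and 0.362 CPM in Ctrl. It rose in RNAiSvb against Ctrl (log2 fold change 4.55, SE 0.57, adjusted p = 0.00373, edgeR's quasi-likelihood test), a call lost without Ctrl library 2 (adjusted p = 0.0801), and was lower in SvbAct than in RNAiSvb (-2.96, adjusted p = 0.00363). The Ctrl values of Ect3 rest on 11 and 6 counts. GILT1, a thiol reductase, had 6.51, 5.85 and 6.22 CPM in SvbAct and 1.09, 1.62 and 1.4 CPM in RNAiSvb, with a log2 fold change of 2.17 (adjusted p = 0.00706, edgeR's quasi-likelihood test). Lip4, an acid lipase, had 42.1, 24.2 and 24.3 CPM in SvbAct and 9.31, 12.2 and 5.37 CPM in RNAiSvb, with a log2 fold change of 1.75 (adjusted p = 0.0118, edgeR's quasi-likelihood test). In Ctrl, GILT1 had 2.03 and 1.99 CPM and Lip4 had 24 and 27.2 CPM. Against Ctrl the log2 fold change of GILT1 was 1.62 in SvbAct and -0.55 in RNAiSvb. It was 0.24 and -1.51 for Lip4, and none of these was called by that test.

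The other 3 genes of the hydrolase list called between SvbAct and RNAiSvb, named after their values were seen, were lower in SvbAct. Gal, a beta-galactosidase, had 50.4, 94.3 and 61.4 CPM in SvbAct and 127, 221 and 132 CPM in RNAiSvb (log2 fold change -1.22, adjusted p = 0.0271, edgeR's quasi-likelihood test). Hexo1, a hexosaminidase, had 79.5, 85.8 and 107 CPM in SvbAct and 130, 256 and 160 CPM in RNAiSvb (-1, adjusted p = 0.0345, edgeR's quasi-likelihood test). LManIV, an alpha-mannosidase, had 2.87, 7.66 and 7.64 CPM in SvbAct and 26.2, 36.8 and 26 CPM in RNAiSvb (-2.3, adjusted p = 0.0355, edgeR's quasi-likelihood test). In Ctrl, Gal had 63.7 and 68.3 CPM, Hexo1 had 146 and 136 CPM, and LManIV had 2.99 and 16.5 CPM. Against Ctrl the log2 fold change of Gal was 0.06 in SvbAct and 1.27 in RNAiSvb. It was -0.63 and 0.37 for Hexo1, and -0.69 and 1.61 for LManIV, and none of these was called by that test. The Gal call was lost without SvbAct library 1, SvbAct library 3 or RNAiSvb library 2, the Hexo1 call without any library other than SvbAct library 3 and RNAiSvb library 1, and the LManIV call without any SvbAct or RNAiSvb library, with adjusted p up to 0.0863, 0.11 and 0.111. Exons of asRNA:CR43866 on the other strand overlap 1266 of the 2345 exon bases of Gal, and exons of Tsp26A overlap fewer, so its counts are uncertain.

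Of 24 further HOPS, CORVET, fusion and late endosome genes, 0 were called against Ctrl in either group by edgeR's quasi-likelihood test, with 2 and 2 at an unadjusted p under 0.05 and 0 by the DESeq2 Wald test. Of all genes tested, 3.44% and 1.36% were called in these comparisons and 17.4% and 13.6% had such a p. Between SvbAct and RNAiSvb 1 of the 24 was called, where 6.26% of all genes tested were, so this count is near the background. The gene called was mop, an endosomal sorting gene with 215, 242 and 200 CPM in SvbAct and 138, 126 and 133 CPM in RNAiSvb (log2 fold change 0.73, adjusted p = 0.015, edgeR's quasi-likelihood test). In Ctrl mop had 181 and 199 CPM, with log2 fold changes against Ctrl of 0.2 in SvbAct and -0.52 in RNAiSvb. Of 16 Ragulator, Rag and TORC1 genes 1 was called, RagA-B, between SvbAct and RNAiSvb, which is at the background of 6.26%. This GTPase gene, part of amino acid sensing at the lysosome, had 35.4, 55.1 and 41.9 CPM in SvbAct and 24.9, 24.3 and 25.7 CPM in RNAiSvb (log2 fold change 0.82, adjusted p = 0.0339, edgeR's quasi-likelihood test), a call lost when any library other than SvbAct library 1 was left out (highest adjusted p = 0.102). In Ctrl RagA-B had 27.7 and 35.2 CPM, with log2 fold changes against Ctrl of 0.49 in SvbAct and -0.33 in RNAiSvb.

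Of 10 lysosomal membrane proteins, channels and transporters 1 rose in SvbAct against Ctrl, the tetraspanin gene Tsp42Ee, where 1.95% of all genes tested rose. Between SvbAct and RNAiSvb 2 of the 10 were higher in SvbAct, where 4.05% of all genes were. Tsp42Ee had 31.2, 74.3 and 35.2 CPM in SvbAct, 11.8, 12 and 13.6 CPM in RNAiSvb, and 9.41 and 12.6 CPM in Ctrl. Every SvbAct library was above every other one, and the log2 fold change was 2.09 against Ctrl (adjusted p = 0.0129, edgeR's quasi-likelihood test) and 1.91 against RNAiSvb (adjusted p = 0.00713), the first lost without either Ctrl library (adjusted p of 0.178 and 0.097). Cln7, a transporter of the lysosomal membrane, was higher in SvbAct than in RNAiSvb (log2 fold change 0.69, adjusted p = 0.0264, edgeR's quasi-likelihood test), with 74.5, 92.1 and 72.5 CPM in SvbAct and 44.1, 54 and 49.8 CPM in RNAiSvb. In Ctrl Cln7 had 48.9 and 48.6 CPM, with log2 fold changes against Ctrl of 0.71 in SvbAct and 0.02 in RNAiSvb, neither of them called. The Cln7 call was lost without SvbAct library 2, RNAiSvb library 1 or RNAiSvb library 3 (adjusted p up to 0.077). Of the 14 AP-3, BLOC and pigment granule genes and the 4 V-ATPase assembly factors, 0 were called in any of the 3 comparisons by edgeR's quasi-likelihood test or by the DESeq2 Wald test. At an unadjusted p under 0.05 the 14 genes gave 2, 2 and 0 and the 4 assembly factors 1, 0 and 0, for SvbAct against Ctrl, RNAiSvb against Ctrl and SvbAct against RNAiSvb, where 17.4%, 13.6% and 23.7% of all genes tested had such a p. Exons of GILT1, RagA-B and Cln7 overlap those of another gene on the other strand by 58, 62 and 10 bases.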

How the data were processed

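Counts per FlyBase gene for 8 libraries were used as the authors deposited them. Per the submitters' processing notes, the tools were FastQC 0.11.5, STAR 2.5.2b, HTSeq 0.6.0 and edgeR, and the build was dm6; gene filter, strand setting and handling of molecular identifiers were not given in the sources used here. Per the labels' protocols, libraries were made with a NuGEN Ovation SoLo kit and read as single 100-nt reads. The authors' own fold changes and p-values were not used. Symbols matched 9060 of 9177 gene IDs, and exon lengths and coordinates came from the Ensembl annotation of the same build.

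In R 4.3.3, edgeR 4.0.16 (limma 3.58.1) kept 8775 genes with filterByExpr, left out 402 (24 at 0 in every library), computed TMM factors and fitted all 8 libraries with a mean per group by glmQLFit (5 residual degrees of freedom, common biological coefficient of variation 0.282). The glmQLFTest p-values were adjusted over all genes tested by Benjamini-Hochberg. Each SE was derived from the test, as the absolute log2 fold change over the root of its F statistic. The fits were tested on simulated data. Alternatives are given in the closing section, among them DESeq2 1.42.0.

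The genes, the lists and the tests were chosen with earlier results of these data known. Genes given library by library were those past the threshold, the 3 with the smallest p in each comparison that were not already given, the main gene of each subunit with several genes, and all lysosome genes; Vha16-1, Vha68-3, VhaAC39-2 and Vha100-4 were added after their values were seen. Genes of the other lysosome lists were named only past the threshold, at most 5 per list and comparison, with 3 more from the hydrolase list named after their values were seen. Replicates were made on different days, per the labels, but no label ties a replicate number to one day across groups or says which flies a library came from, so p-values measure the spread between these libraries, which may in part be technical.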

Additional observations from a re-analysis of the deposited data

Results flagged for a closer look

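Npc1a lay above Ctrl in every SvbAct library and below Ctrl in every RNAiSvb library. The margin was small in SvbAct, with a lowest value of 97.2 CPM where Ctrl library 2 had 95.9 CPM. Of all genes tested, 38.6% did not overlap between SvbAct and Ctrl and 32.9% between RNAiSvb and Ctrl. Neither effect of Npc1a against Ctrl was called (adjusted p of 0.377 and 0.582, edgeR's quasi-likelihood test). The difference between these effects was a log2 fold change of 0.65 between SvbAct and RNAiSvb, which did not pass edgeR's quasi-likelihood test (adjusted p = 0.0571).

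For 12 genes of the other lysosome lists the effect against Ctrl differed between SvbAct and RNAiSvb by that test, which compares SvbAct with RNAiSvb directly. The lists hold 32, 24, 14, 16, 10 and 4 genes, and 6.26% of all genes tested were called in that comparison. The log2 fold change of SvbAct over RNAiSvb was 2.38 for Npc2a, 2.24 for Npc2e, 2.17 for GILT1, 1.91 for Tsp42Ee and 1.75 for Lip4. It was 0.82 for RagA-B, 0.73 for mop and 0.69 for Cln7. It was -2.96 for Ect3, -2.3 for LManIV, -1.22 for Gal and -1.0 for Hexo1. The calls for Gal, Hexo1, LManIV, RagA-B and Cln7 were each lost when certain single libraries were left out. Exons of antisense RNA genes overlap 611 of the 661 exon bases of Npc2e and 1266 of the 2345 of Gal, so their counts are uncertain. With 2 or 3 libraries a group, no single library was tested for standing apart.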

How the results depend on the processing

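Each of the 28 genes was refitted in 3 comparisons under 16 other settings, which gave 1344 values. Of these, 2 passed the threshold, both for Npc1a between SvbAct and RNAiSvb: with the DESeq2 Wald test and with library totals, 1 of the 28 genes was called. Another 95 values had the other sign, over 42 of the 84 pairs of gene and comparison; none of these pairs had a main log2 fold change above 0.32 in size, and no such value was called. Over all genes, for SvbAct against Ctrl, RNAiSvb against Ctrl and SvbAct against RNAiSvb, the DESeq2 Wald test called 641, 351 and 1054 genes, where edgeR's quasi-likelihood test called 302, 119 and 549. With one library left out, these edgeR counts ranged from 48 (without Ctrl replicate 1) to 368, from 23 (without Ctrl replicate 2) to 141, and from 262 (without SvbAct replicate 2) to 497, while 0 of the 28 genes were called each time. The median log2 fold change of the 28 genes then ranged from -0.117 to 0.079, from -0.127 to 0.01 and from -0.099 (without SvbAct replicate 2) to 0.148. On library totals the median of all genes moved to 0.078, 0.13 and -0.036, and that of the 28 genes to 0.066, 0.045 and 0.044. The causes were not tested. Same-numbered SvbAct and RNAiSvb libraries deviated together with r of -0.017, 0.079 and 0.116 across genes. Different-numbered libraries of these groups had r from -0.199 to 0.153. With so few libraries these values cannot decide whether the numbers pair them. With replicate number as a block, 269, 124 and 443 genes were called, 0 of the 28 among them, and the median of the 28 was 0.057, 0.062 and 0.062.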
